A study of Arabidopsis thaliana with 12 samples.

Results

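The transcripts described here come from 4 genes of lateral root formation in Arabidopsis thaliana: LBD16 (AT2G42430), LBD29 (AT3G58190), PUCHI (AT5G18560) and the polygalacturonase PGLR (AT5G14650, listed by its locus code in the annotation used). They were picked by locus in the annotation of the Affymetrix ATH1 array. All 4 were found, each with 1 probe set, out of 13355 genes that have a probe set of their own. Seedlings labelled Col:LUC, with the ecotype given as Col-0, were grown for 10 days on B5 plant culture medium and then kept for 3 days on a second plate. The 4 groups were seedlings on 4.5 µM NAA treated for 3 hours with 50 µM antimycin A, seedlings on 4.5 µM NAA without antimycin A, seedlings on B5 treated for 3 hours with 50 µM antimycin A, and seedlings on B5 without either compound. Each group holds 3 arrays, in biological triplicate per the labels. NAA is a synthetic auxin, and antimycin A blocks electron transfer at complex III in mitochondria. The labels do not explain the name LUC, and their growth protocol names seeds of Col-0 and Attim17-1, so the genotype rests on the sample labels. They also do not say whether untreated seedlings got the carrier in which antimycin A was dissolved, so carrier and inhibitor cannot be told apart.

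Lateral roots arise from pericycle cells next to the xylem, deep inside the parent root. Auxin releases the response factors ARF7 and ARF19 from Aux/IAA repressors, and these factors switch on LBD16 and LBD29, members of the LOB domain family of transcription factors, so that founder cells divide. PUCHI, an AP2/ERF transcription factor that acts in the young primordium, keeps its divisions in order. The primordium then pushes through the overlying tissue, where cell wall enzymes such as polygalacturonases, which cut the homogalacturonan of pectin, loosen the contacts between cells. Synthetic auxins are known to drive this programme along the root.

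The arrays had median intensities of 33.7 to 39.7 and 25th percentiles of 6.38 to 7.16, arrays of one group correlated at 0.990 to 0.997 over probe sets, and no array stood apart. The values are linear intensities as deposited, with no detection call. Arrays are limited in precision by their number, and whether a dim value stands for a transcript or for background is unknown. A control probe set on the array that detects 25S rRNA read 12030 ± 317 on NAA with antimycin A, 6081 ± 477 on NAA, 8244 ± 175 on B5 with antimycin A and 5385 ± 347 on B5 (SD, n = 3). It moved with antimycin A on both media, and its part in the results was not tested.

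NAA raised all 4 transcripts in untreated seedlings, and with antimycin A on NAA they did not all move in the same direction. Among NAA-grown seedlings, antimycin A raised LBD16 and lowered LBD29, PUCHI and PGLR. On B5 the 3 transcription factor genes were dim, with 17.8% to 36.1% of probe sets having a lower mean, and were not called with antimycin A, while PGLR fell. The antimycin A effect was called different between the media for all 4 genes, upward on NAA for LBD16 and downward for the others. The call for PGLR was close to the threshold. LBD29 and PUCHI were so dim on B5 that a fall as large as on NAA had little room there. For these genes the test cannot tell a different response from that limit. Fold changes below are on the scale of log2(intensity + 16), where the added 16 keeps dim values from dominating and understates the change of dim transcripts. A gene is called where limma's two-sided moderated test over all 22746 probe sets gives a Benjamini-Hochberg adjusted p below 0.05, and the error of a fold change is its standard error. In RNA of seedlings, fewer cells of a type and less RNA per cell cannot be told apart.

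**Figure D1:**
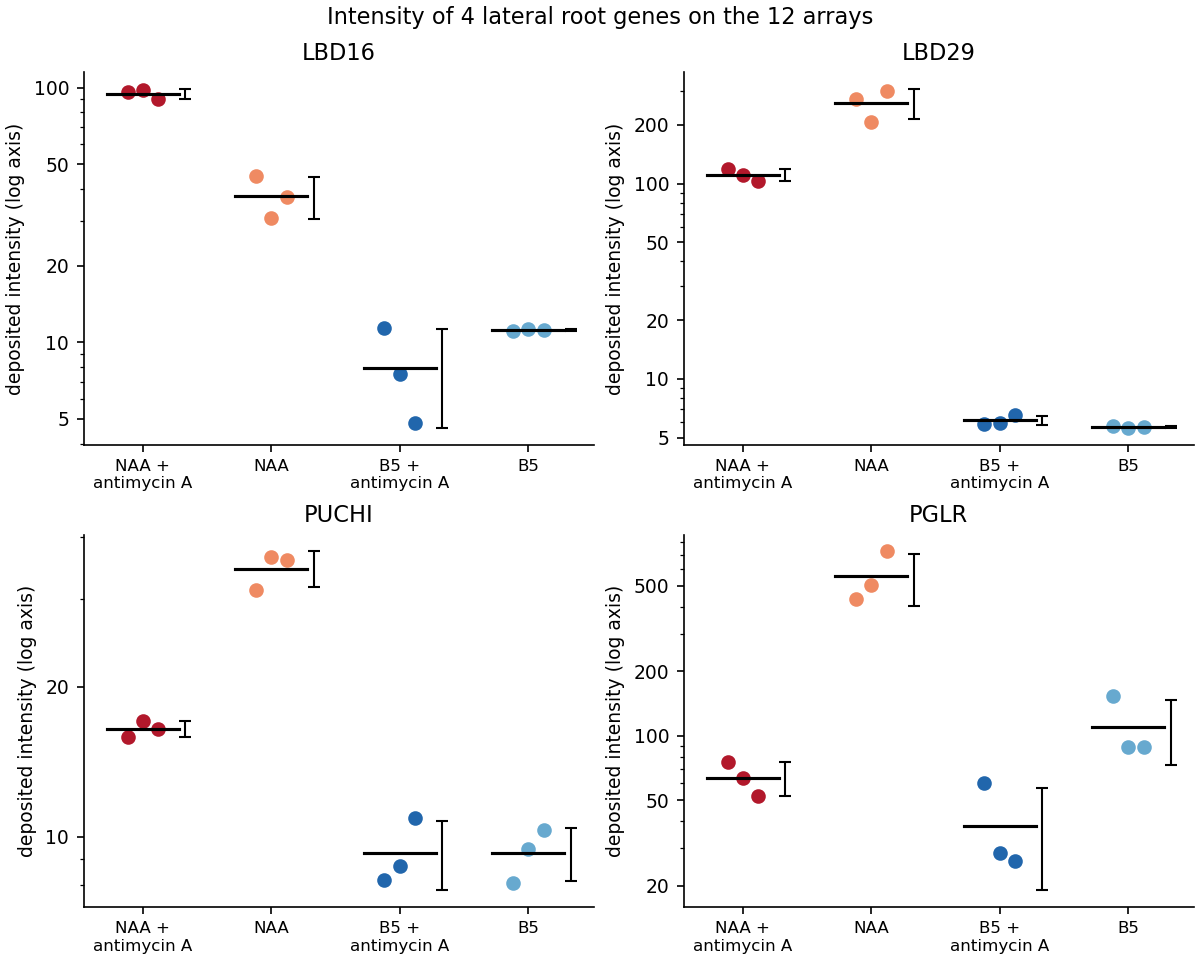
Deposited intensity (log axis) of LBD16, LBD29, PUCHI and PGLR on each of the 12 arrays, by group; points are arrays, horizontal bars group means and error bars SD (n = 3). LBD16 is highest on NAA with antimycin A (89.86 to 97.45), whereas the other 3 genes are highest on NAA without it.

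LBD16, an activator of founder cell division and of lateral root initiation, was the one gene of the 4 that stood highest with both compounds. It read 96.09, 97.45 and 89.86 on NAA with antimycin A, 44.85, 30.72 and 37.07 on NAA, 11.41, 7.53 and 4.84 on B5 with antimycin A, and 11.1, 11.28 and 11.21 on B5. The lowest array with both compounds was thus above every array with NAA alone, and every NAA array was above every B5 array. The B5 groups overlapped. NAA raised LBD16 in untreated seedlings to 37.5 ± 7.08, against 11.2 ± 0.0907 on B5 (SD, n = 3), a log2 fold change of 0.97 ± 0.11 (adjusted p = 0.000297). With antimycin A on both sides the NAA effect was larger, at 94.5 ± 4.05 on NAA against 7.93 ± 3.3 on B5, or 11.9-fold in deposited values (log2 2.22 ± 0.11, adjusted p = 3.32e-06). Antimycin A on NAA raised LBD16 by 1.05 ± 0.11 (adjusted p = 0.000116), that is 2.52-fold in deposited values. On B5 the log2 fold change with antimycin A was -0.19 with a 95% interval of -0.44 to 0.05 (adjusted p = 0.226), and the 3 treated arrays spread over more than the gap between the means. The antimycin A effect on NAA exceeded that on B5 by 1.25 ± 0.15 (adjusted p = 0.00184).

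LBD29, the second LOB domain gene and a known direct target of ARF7 and ARF19, showed the widest step with NAA of the 4 genes. Its intensities were 118.91, 111.01 and 103.51 on NAA with antimycin A, 272.71, 208.27 and 296.78 on NAA, 5.9, 5.96 and 6.54 on B5 with antimycin A, and 5.73, 5.63 and 5.68 on B5. All 6 B5 arrays were dim: 19.5% of probe sets had a lower mean on B5 with antimycin A and 17.8% on B5. The NAA groups did not overlap each other, and both were far above the B5 arrays. In untreated seedlings LBD29 rose to 259 ± 45.8 on NAA, against 5.68 ± 0.05 on B5 (log2 3.65 ± 0.10, adjusted p = 2.27e-07), the 16th largest rise of all probe sets. The ratio of deposited means was 45.6, and it depends on the dim B5 values. With antimycin A on both sides the NAA effect was 2.52 ± 0.10 (adjusted p = 1.71e-06), 111 ± 7.7 on NAA against 6.13 ± 0.353 on B5, which ranked 52 among rises. These ranks move with the constant added before taking logs: the rise in untreated seedlings ranked 8 with a constant of 1 and 35 with 64, and that with antimycin A 19 and 183. Antimycin A lowered LBD29 on NAA by a log2 fold change of -1.10 ± 0.10 (adjusted p = 6.57e-05), to 42.9% of its mean on NAA alone. On B5 the value with antimycin A was 0.03, with a 95% interval of -0.20 to 0.26 (adjusted p = 0.847). The treated and untreated B5 arrays did not overlap, but their means differed by less than 1 intensity unit, and a fall could hardly be seen at that level. The antimycin A effect on NAA lay below that on B5 by -1.13 ± 0.15 (adjusted p = 0.00221).

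PUCHI, the AP2/ERF regulator of the primordium, rose with NAA and stood between its B5 and NAA levels with both compounds. Its probe set read 15.88, 17.07 and 16.46 on NAA with antimycin A, 31.27, 36.36 and 36 on NAA, 8.17, 8.72 and 10.92 on B5 with antimycin A, and 8.06, 9.45 and 10.3 on B5. It stayed below the median intensity of each array in every group. The 2 B5 groups had the same mean of 9.27, with an SD of 1.46 with antimycin A and 1.13 without. NAA raised PUCHI in untreated seedlings to 34.5 ± 2.84, against 9.27 ± 1.13 on B5 (log2 1.00 ± 0.05, adjusted p = 6.16e-06), or 3.73-fold in deposited values. With antimycin A on both sides it rose by 0.36 ± 0.05 (adjusted p = 0.00136), with a mean of 16.5 ± 0.595 on NAA against 9.27 ± 1.46 on B5. Antimycin A lowered PUCHI on NAA by a log2 fold change of -0.64 ± 0.05 (adjusted p = 3.41e-05), to 47.7% of the mean on NAA alone. On B5 the value was -0.00060, with a 95% interval of -0.12 to 0.12 (adjusted p = 0.995). The difference between the antimycin A effects was -0.64 ± 0.08 (adjusted p = 0.00164). A fall of that size had little room on B5, where the mean was 9.27.

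PGLR, the pectin-cutting enzyme, was the 1 gene of the 4 called lower with antimycin A on both media. Its values were 75.36, 63.9 and 52.2 on NAA with antimycin A, 435.5, 507 and 724.54 on NAA, 59.95, 28.33 and 26 on B5 with antimycin A, and 152.75, 88.61 and 88.75 on B5. With both compounds PGLR thus read below every untreated B5 array, although NAA alone gave the highest values. Its arrays spread more, relative to their mean, than those of the other 3 genes in each group, with an SD of 49.8% of the mean on B5 with antimycin A and 33.6% on B5. NAA raised PGLR in untreated seedlings to 556 ± 151, against 110.04 ± 37.0 on B5 (log2 2.19 ± 0.29, adjusted p = 0.000742), or 5.05-fold in deposited values. Antimycin A lowered it on NAA to 63.8 ± 11.6, against 556 ± 151 without (log2 -2.82 ± 0.29, adjusted p = 0.000111), which leaves 11.5% of the mean and is the 47th largest fall of all probe sets (rank 71 with an added constant of 1 and 45 with 64). On B5 it fell to 38.1 ± 19.0 with antimycin A, against 110.04 ± 37.0 without (log2 -1.24 ± 0.29, adjusted p = 0.0088), or 34.6% of the mean, and no treated array reached an untreated one. Among seedlings with antimycin A the NAA effect was not called, at 0.61 with a 95% interval of -0.05 to 1.26 (adjusted p = 0.183), and the groups overlapped. The difference between the antimycin A effects was -1.58 ± 0.41 (adjusted p = 0.0429). That call was lost in 12 of 20 alternative settings, among them the added constant of 1 in place of 16 (adjusted p = 0.0784) and 10 of the 12 fits that left out 1 array (adjusted p of 0.0525 to 0.0982 in those 10). The other 19 results of the 4 genes kept their call in every alternative that could be fitted.

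**Figure D2:**
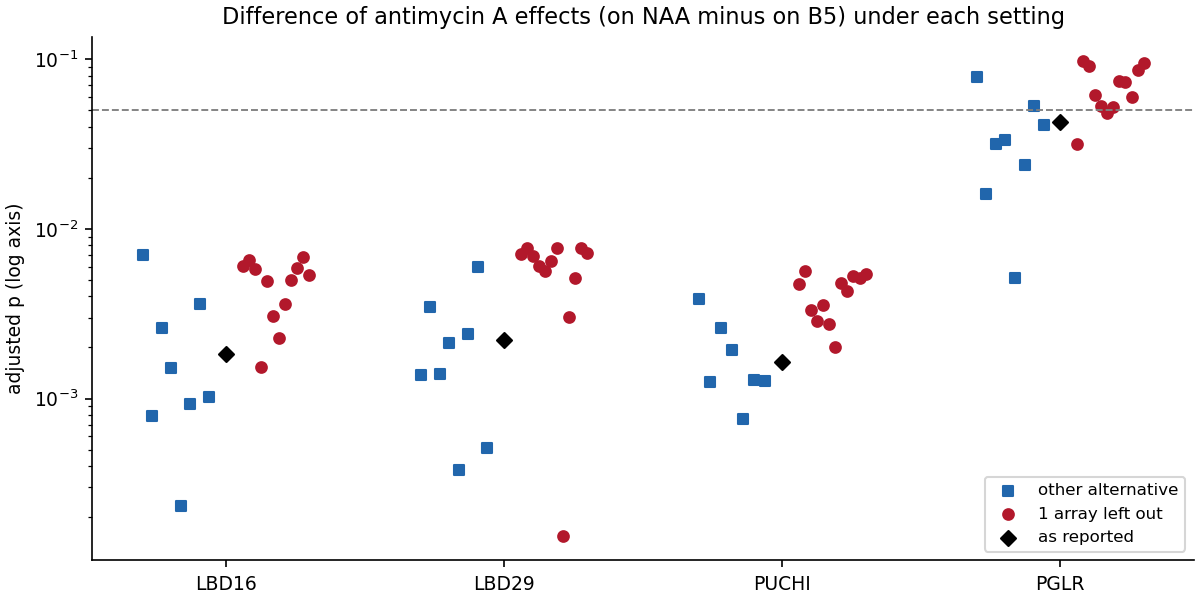
Adjusted p (log axis) of the test that the antimycin A effect differs between NAA and B5, for each gene; diamonds are the values reported, circles fits with 1 array left out, squares the other alternatives, and the dashed line the threshold of 0.05. LBD16, LBD29 and PUCHI are below the line throughout, with no value above 0.00769, and PGLR lies on both sides of it, up to 0.0982. For LBD29 and PUCHI a fall as large as on NAA had little room on B5, whatever the setting.

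**Figure D3:**
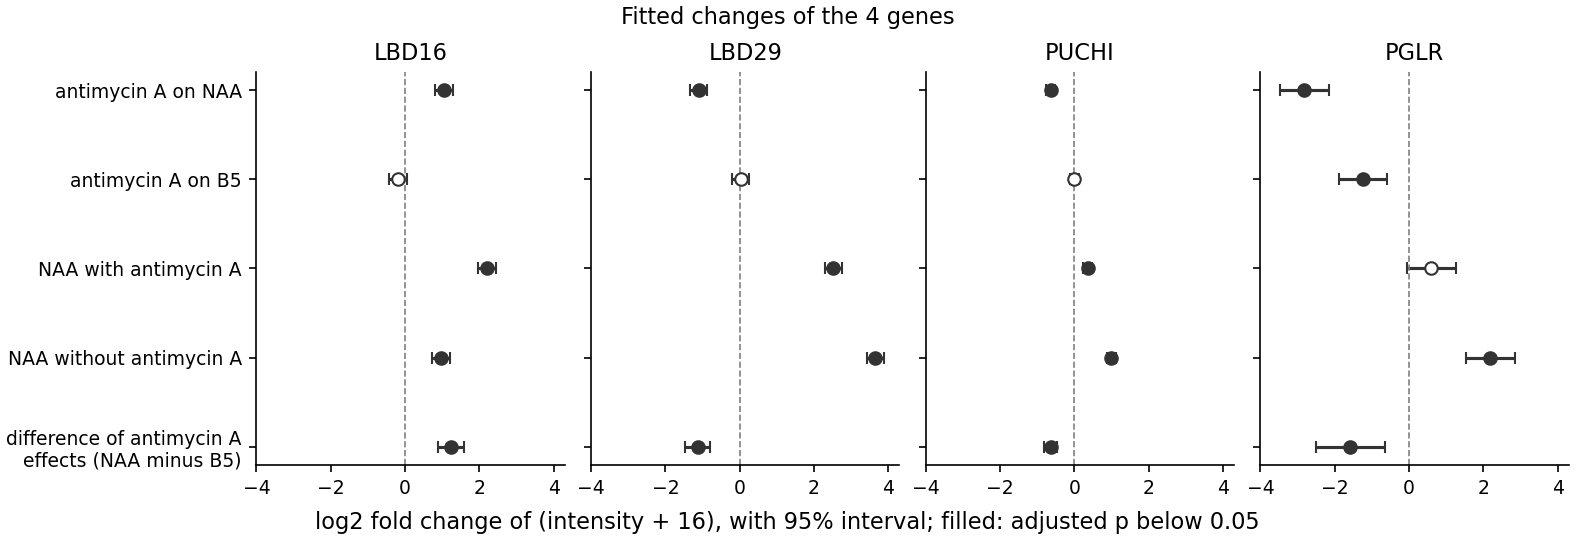
Fitted log2 fold changes of (intensity + 16) with 95% intervals for the 4 genes in the 5 comparisons; filled points have an adjusted p below 0.05 and open points do not. LBD16 is the gene with a rise with antimycin A on NAA (1.05), against -1.10 for LBD29, -0.64 for PUCHI and -2.82 for PGLR.

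Read by comparison, the first question was what 3 days on NAA did. In untreated seedlings 4 of 4 genes were called higher and 0 lower by limma, all at an unadjusted p below 0.05. Of all probe sets 20.4% were called, 10.7% higher and 9.67% lower. The arrays on NAA lay above those on B5 without overlap for 4 of 4 genes, as they did for 18.2% of all probe sets, and below them for 21.1%. The median log2 fold change of the 4 genes was 1.59, against -0.01 over all probe sets. The 4 genes were chosen with earlier results of these data known, so setting them against all probe sets is a description, here and below. Among seedlings with antimycin A 3 of 4 were called higher, with a median of 1.41 against -0.01, and PGLR was the exception. Here 22% of all probe sets were called, 12.2% higher and 9.74% lower. The same 3 genes had no overlap between the groups, against 18% of probe sets with the NAA arrays above and 22.7% with them below. The 2 NAA comparisons share no array. The order of the genes by effect changed between them: LBD29, PGLR, PUCHI and LBD16 in untreated seedlings, and LBD29, LBD16, PGLR and PUCHI with antimycin A. PUCHI and LBD16 lay within 1 standard error of each other in the first order (1.00 and 0.97), and PGLR and PUCHI in the second (0.61 and 0.36).

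The second question was what antimycin A did on each medium. On NAA 1 of 4 genes was called higher (11.6% of all probe sets) and 3 of 4 were called lower (13.2%), together 24.8% of all probe sets, with a median log2 fold change of -0.87, against 0.01 over all probe sets. None of the 4 overlapped between the groups, and 17.2% of all probe sets had the antimycin A arrays above without overlap and 18.9% below. On B5, 0 of 4 were called higher by limma (14.3% of all probe sets) and 1 of 4 was called lower (18.7%), with a median of -0.10 against 0.01 and 33% of all probe sets called. Without overlap, LBD29 lay above on B5 with antimycin A, as did 36.7% of all probe sets, and PGLR below, as did 24%. At an unadjusted p below 0.05 the count on B5 was the same, since the unadjusted p was 0.108 for LBD16, 0.78 for LBD29 and 0.991 for PUCHI. In the difference of the effects 1 of 4 was called higher (5.14% of all probe sets) and 3 of 4 were called lower (4.39%), with 9.53% of all probe sets called. The difference is made of both antimycin A effects, and each antimycin A effect shares a group with each NAA effect.

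Levels can also be put in order within each gene. For LBD16 the order, low to high, was B5 with antimycin A, B5, NAA, NAA with antimycin A, and the first 2 groups overlapped. For LBD29 it ran B5, B5 with antimycin A, NAA with antimycin A, NAA, with no overlap between neighbours, although the first step was not called. PUCHI had the same sequence as LBD29, with the B5 groups level. For PGLR both antimycin A groups came first, in the order B5 with antimycin A, NAA with antimycin A, B5, NAA, where the first 2 overlapped and the others did not.

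Whether the 4 genes changed unequally with antimycin A on NAA was read from the difference of log2(intensity + 16) between 2 genes on the same array, for all 6 pairs. The gap of LBD16 to LBD29 was -0.20 on average with antimycin A (arrays from -0.27 to -0.16), against -2.36 on NAA alone (arrays from -2.56 to -2.25), a change of 2.15. That of LBD16 to PGLR changed by 3.87, to PUCHI by 1.69, that of LBD29 to PGLR by 1.72, that of PUCHI to PGLR by 2.18 and that of LBD29 to PUCHI by -0.46. LBD16 was higher on every array with antimycin A and the other 3 genes lower, so for the 3 pairs with LBD16 the groups could not overlap. The gap of LBD29 to PUCHI was 1.88 to 2.08 with antimycin A, against 2.099 to 2.61 without. The exact two-sided permutation test gave p = 0.1 for each pair, adjusted 0.1 over the 6, which is the smallest p that 3 against 3 arrays allow, so no pair could pass the threshold.

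The genes with the most similar pattern were sought among 3196 probe sets of 1 gene that reached an intensity of 50 and ranged over at least 1 log2 unit, by Pearson correlation with each of the 4 genes over the 12 arrays. The arrays fall into 4 groups, so that a high value reflects mostly the group means. It is a description, and which genes lead depends on the measure: with an added constant of 1, 3 of the 5 leading genes of each list were the same, and with rank correlation 1 of 5 for LBD16 and LBD29 and 0 of 5 for PUCHI and PGLR. Closest to LBD16 was IAA29 (r = 0.978), an Aux/IAA protein, which read 84.7 ± 9.12 on NAA with antimycin A, 29.6 ± 6.72 on NAA, 5.45 ± 0.463 on B5 with antimycin A and 5.10 ± 0.0839 on B5 (SD, n = 3). Next came AT5G19340 (0.975), AT4G17350 (0.972), AT5G25770 (0.968) and AT2G16790 (0.967).

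LBD29 was followed most closely by AT5G47550 (r = 0.994), which read 1416 ± 117 on NAA with antimycin A, 3729 ± 220 on NAA, 269.5 ± 25.7 on B5 with antimycin A and 216 ± 6.77 on B5. AT5G14130 (0.986), PR-1-LIKE (0.985), AT2G19970 (0.979) and AT2G03200 (0.967) came after it. They were not like LBD29 in every comparison. The difference of antimycin A effects was called for AT5G47550 (-1.68) and PR-1-LIKE (-2.30), and not for AT5G14130 (-0.53), AT2G19970 (0.006) and AT2G03200 (-0.24). On B5, where LBD29 was not called, AT2G19970 (log2 -1.64), PR-1-LIKE (-0.61) and AT2G03200 (-0.47) were called lower with antimycin A and AT5G47550 (0.29) higher. The leading genes for PUCHI were PAP20, a purple acid phosphatase (r = 0.984), AT3G61930 (0.979), AT3G46720 (0.975), AT2G28200 (0.973) and AT1G62760 (0.973). AT3G61930 read 33.3 ± 10.7 on NAA with antimycin A, 322 ± 24.2 on NAA, 7.77 ± 0.86 on B5 with antimycin A and 7.82 ± 2.66 on B5, so that, as for PUCHI, the B5 groups were level. For PGLR they were AT5G23840 (r = 0.976), XEG113, which adds arabinose to extensins of the cell wall (0.972), AT3G49960 (0.967), AT3G58550 (0.957) and AT5G04960 (0.955). AT5G04960 read 18.6 ± 4.61 on NAA with antimycin A, 343 ± 57.8 on NAA, 10.0 ± 0.165 on B5 with antimycin A and 80.1 ± 18.8 on B5. Among the 4 genes themselves the correlation was 0.931 for LBD29 and PUCHI, 0.834 for PUCHI and PGLR, 0.768 for LBD16 and LBD29, 0.694 for LBD29 and PGLR, 0.499 for LBD16 and PUCHI and 0.192 for LBD16 and PGLR. LBD16 and LBD29 thus belong to one protein family, yet LBD29 was closer to PUCHI than to LBD16 on these arrays.

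**Figure D4:**
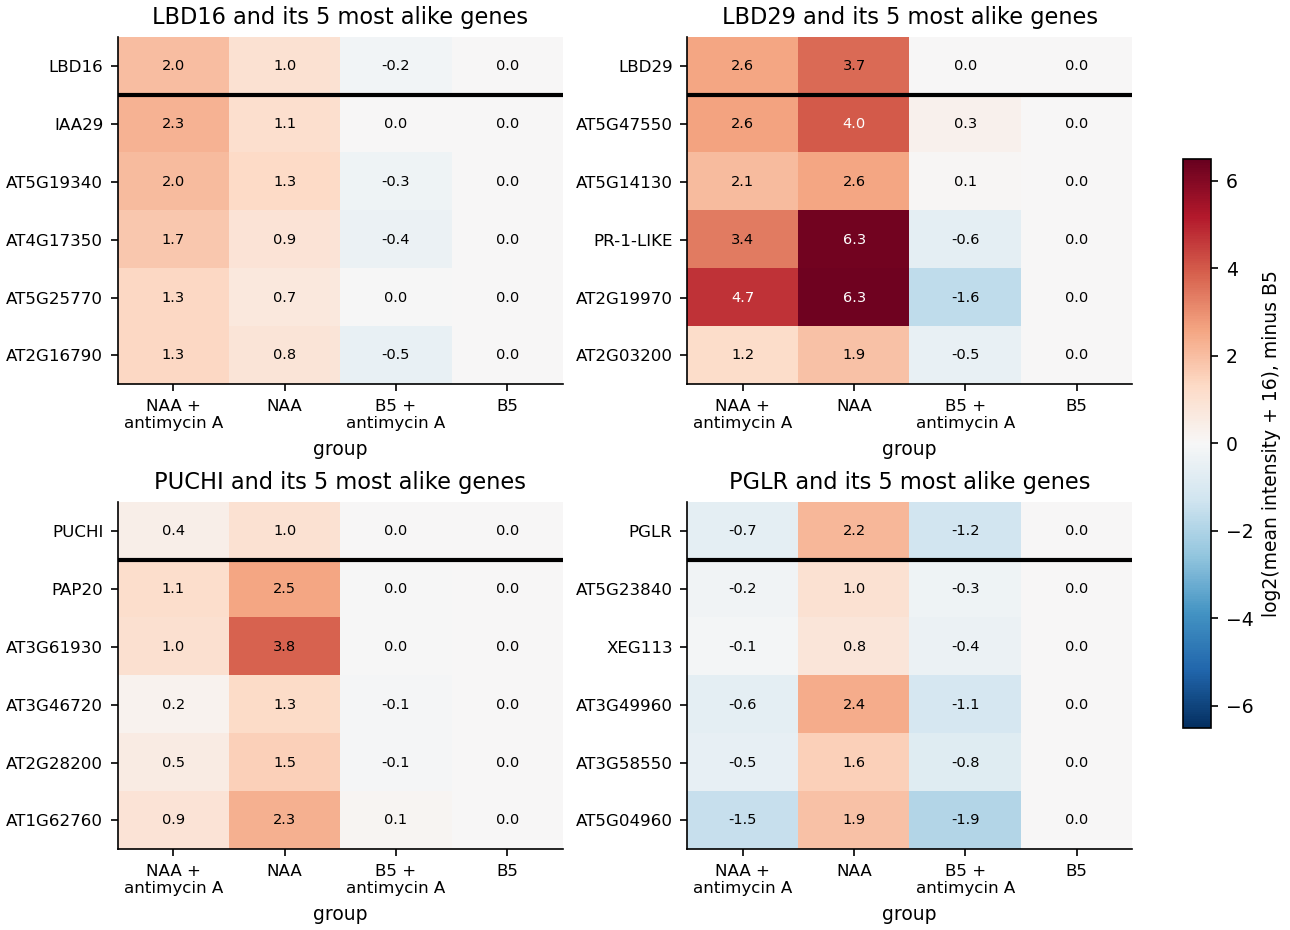
Group levels of each of the 4 genes (top row of each panel) and of the 5 genes with the highest correlation to it over the 12 arrays (r from 0.955 to 0.994), as log2(mean intensity + 16) minus the value on B5; columns are groups and colour gives the value printed in each cell. In the LBD16 panel the first column is highest in every row, and in the other 3 panels the second column, NAA without antimycin A, is highest.

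Of 91 further genes listed for auxin transport and response, the LOB domain family, founder cells, the primordium, cell division, emergence and pectin cutting, 9 had a probe set in the annotation used, and the other 82 are not analysed here. In NAA-grown untreated seedlings 2 of 9 were called higher and 0 lower by limma (10.7% and 9.67% of all probe sets). The median log2 fold change of the 9 was 0.08, against -0.01 over all probe sets. At an unadjusted p below 0.05, 2 of the 9 were higher and 1 lower, and no share of all probe sets at that threshold is given. The 2 genes called higher were LEP, an AP2/ERF protein as PUCHI is, and XTH19, a xyloglucan-remodelling enzyme. LEP read 51.2 ± 15.96 on NAA with antimycin A, 111 ± 20.02 on NAA, 20.3 ± 6.94 on B5 with antimycin A and 29.2 ± 0.39 on B5. It rose with NAA by 1.48 ± 0.20 (adjusted p = 0.000826) and by 0.88 with antimycin A on both sides (adjusted p = 0.0123), and fell with antimycin A on NAA by a log2 fold change of -0.94 ± 0.20 (adjusted p = 0.00746), the directions of PUCHI. XTH19 rose with NAA by 1.42 ± 0.28 (adjusted p = 0.00602) and by 1.58 with antimycin A on both sides (adjusted p = 0.00342), and was not called with antimycin A on NAA (0.57, adjusted p = 0.184).

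With antimycin A on NAA 0 of those 9 genes were called higher by limma and 2 lower (11.6% and 13.2% of all probe sets). On B5 0 of 9 were called higher by limma and 1 lower (14.3% and 18.7%). These counts are near the shares over all probe sets. At an unadjusted p below 0.05 there were 0 higher on either medium, 4 lower on NAA and 2 lower on B5. The shares over all probe sets given here are of adjusted calls, so they do not compare with unadjusted counts. In the difference of the effects 0 of 9 were called by limma (9.53% of all probe sets), and 1 was higher at an unadjusted p below 0.05. RALFL34, a signalling peptide that acts in lateral root initiation, fell on both media, by a log2 fold change of -1.02 ± 0.13 on NAA (adjusted p = 0.000351) and of -1.66 ± 0.13 on B5 (adjusted p = 1.22e-05). It was not called with NAA in untreated seedlings (-0.37, adjusted p = 0.0734). ACR4, a receptor kinase of founder cell divisions, had group means of 8.96 to 16.3 and was not called in any of the 5 comparisons (log2 -0.24 to 0.14). Of 8 polygalacturonases listed, PGLR among them, 4 were measured. The 3 besides PGLR, ADPG1 and the loci AT1G78400 and AT1G48100, read under 10 in every group and were not called (log2 -0.18 to 0.08). PGLR was thus the 1 called of those 4, and at such dim values of the others a fall could hardly be seen.

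Further genes were listed after the annotation had been seen. UPB1, a transcription factor that sets the balance of reactive oxygen in the root and affects lateral roots, rose with NAA, by 1.42 ± 0.29 in untreated seedlings (adjusted p = 0.0077) and by 2.31 ± 0.29 with antimycin A on both sides (adjusted p = 0.000557). It was not called with antimycin A on either medium, and read 143 ± 31.4 with both compounds and 132 ± 62.4 on NAA alone. Of 15 GH3, YUC and Aux/IAA genes 6 were called higher with NAA in untreated seedlings and 0 lower (10.7% and 9.67% of all probe sets), with a median of 0.02 against -0.01 over all probe sets. With antimycin A on NAA 3 of the 15 were called higher (GH3.3, IAA29 and IAA30) and 1 lower (GH3.17), where 11.6% and 13.2% of all probe sets were. In the difference of the effects 2 were called in each direction, where 5.14% of all probe sets were called higher and 4.39% lower. The difference was 1.13 for IAA29 (adjusted p = 0.002) and 1.46 for IAA30 (adjusted p = 0.000183), the sign of LBD16. It was -4.16 for GH3.3 (adjusted p = 0.000121) and -1.14 for GH3.5 (adjusted p = 0.013), the sign of the other 3 genes but not their pattern. Antimycin A raised GH3.3 by 5.33 on B5 (adjusted p = 3.39e-07) and by 1.17 on NAA (adjusted p = 0.00224). GH3.5 rose by 1.59 on B5 (adjusted p = 5.05e-05) and was not called on NAA (0.45, adjusted p = 0.0605). Of the 4 pectin methylesterases listed, all with a gene symbol, 1 was called higher and 1 lower with antimycin A on each medium. Of all probe sets 11.6% were called higher and 13.2% lower on NAA, and 14.3% and 18.7% on B5. Genes named only by locus were not on that list, so the count does not cover the family. PME41 rose with antimycin A on both media, by 1.11 on NAA (adjusted p = 0.0157) and by 3.12 on B5 (adjusted p = 2.81e-05). PME61 fell, by a log2 fold change of -0.67 on NAA (adjusted p = 0.00523) and of -0.58 on B5 (adjusted p = 0.0078).

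Summed markers of the tissues of a seedling moved with the groups. Of 9 root markers 2 were measured, the root hair expansins EXPA7 and EXPA18. Their summed intensity was 45.0 to 64.1 on NAA with antimycin A, 467 to 648 on NAA, 20.7 to 21.2 on B5 with antimycin A and 124 to 202 on B5, the same order of groups as PGLR. Over the 12 arrays EXPA7 correlated at 0.948 with PGLR, 0.797 with PUCHI, 0.617 with LBD29 and 0.0748 with LBD16. For EXPA18 these values were 0.951, 0.734, 0.593 and 0.139. Of 9 shoot markers 6 were measured, and their sum was 11116 to 15664 on NAA with antimycin A, 20337 to 22816 on NAA, 17150 to 21141 on B5 with antimycin A and 33608 to 35244 on B5. It was highest on B5 without either compound and lowest with both. With antimycin A on NAA 2 of the 6, LHCB4.2 and PSAN, were called lower, as were 13.2% of all probe sets. The other 4 were not called there. With antimycin A on B5, 4 of the 6 were called lower (18.7% of all probe sets). With NAA, 3 of the 6 were called lower in untreated seedlings (9.67%) and 2 with antimycin A on both sides (9.74%). No measured marker was listed at 0. SPCH, a stomatal lineage marker, had group means of 5.46 to 5.93, and EXPA7 had a mean of 4.99 on B5 with antimycin A, where the 25th percentile of an array was 6.38 or more. The part of the makeup of the seedlings in the results was not tested.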

How the data were processed

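RNA of 12 seedling samples, 3 in each of 4 groups, was hybridised to Affymetrix ATH1 arrays, 400 ng per sample per the labels' protocols. The authors deposited 1 linear intensity per probe set and array. Which of MAS5, RMA and Partek, all listed in the submitters' processing notes, made these values is not stated, so the background correction and normalization behind the values are unknown, and these steps bear most on dim values. The 64 control probe sets were left out and 22746 probe sets tested. By the platform annotation 13513 of them have 1 gene, 503 several and 8730 none named here.

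limma 3.58.1 in R 4.3.3 (lmFit, eBayes) was fitted to log2(intensity + 16) with 4 group means over all 12 arrays (8 residual degrees of freedom) and 5 contrasts. Adjustment was Benjamini-Hochberg over all probe sets, and a call needed an adjusted p below 0.05. The fit was tested on simulated data. Pair comparisons used the exact permutation test over 20 rearrangements. The 4 genes and the gene lists were chosen with earlier results of these data known. Genes named were the 4, the 5 most correlated with each, and called or otherwise described members of the lists. Alternatives were other added constants, quantile normalization, median centring, a filter on dim probe sets, an intensity trend, array weights, fits of the 2 groups compared, the replicate number as a block, and leaving out each array. The labels name no batch. Same-numbered arrays correlated at -0.10 to 0.35 in their deviations from group means, 5 of 18 pairs above 0.1, against -0.33 to 0.28 for other pairs. For 6 of 12 arrays the best match in another group had the same number. This leaves pairing unsettled. The main fit did not pair samples, and the block was an alternative.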

Additional observations from a re-analysis of the deposited data

Results flagged for a closer look

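For all 4 genes the antimycin A effect differed between the media by limma's test of the difference itself (effect on NAA minus effect on B5). The difference was 1.25 for LBD16, -1.13 for LBD29, -0.64 for PUCHI and -1.58 for PGLR. On NAA the 3 arrays with antimycin A lay above the 3 without for LBD16 and below them for the other 3 genes. For LBD16, LBD29 and PUCHI the effect on B5 was not called and the B5 values were dim, so that a fall there could hardly be measured. LBD29 and PUCHI fell on NAA, and what part this limit has in their differences was not tested. LBD16 rose on NAA. On B5 its means were 11.2 without antimycin A and 7.93 with it, where the added 16 understates a change in either direction. What part this has in its difference was not tested. The call for PGLR was lost in 12 of 20 alternatives.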

How the results depend on the processing

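Of 20 results for the 4 genes in the 5 comparisons, 18 kept direction and call in every alternative fitted, and 394 of 411 alternative values did so. PUCHI with antimycin A on B5, near 0 and never called, became 0.024 with median centring and ran from -0.047 to 0.031 when 1 array was left out. The PGLR difference of effects was no longer called with an added constant of 1 (-1.52, adjusted p = 0.0784) or with the replicate block (-1.58, adjusted p = 0.0527), and ran from -1.81 to -1.31 when 1 array was left out, where 10 of 12 fits lost the call. It was kept without the first B5 array and without the third B5 array with antimycin A. The cause was not tested. The block changed no other call of the 4 genes. Of the 5 most correlated genes, 3 were shared with an added constant of 1 for each of the 4 genes, and with rank correlation 1 for LBD16 and for LBD29 and 0 for PUCHI and for PGLR. Median centring moved the median of all probe sets to -0.10 in the NAA effect without antimycin A, with 2136 called higher and 9866 lower (2437 and 2200 otherwise), and to -0.13 with antimycin A, with 2381 and 10984 (2779 and 2215 otherwise). The size of a log2 change depends on the added constant: LBD29 rose with NAA by 5.27 with 1 and by 2.20 with 64. PUCHI did not pass the filter on dim probe sets, and the difference of effects has no fit of 2 groups. Dim B5 values limit what can be seen of LBD16, LBD29 and PUCHI there.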
